A study of Mus musculus with 2 samples.

Results

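Slpi, Wfdc17 and Wfdc21 encode small secreted proteins of the whey acidic protein (WAP) domain family, and they were followed here through the blood leukocytes of WT and APP/PS1 mice. The members were taken by gene symbol, Slpi together with the Wfdc genes Wfdc17 and Wfdc21, which makes 3 of the 32285 genes in the count tables. They were selected on their summed UMIs per cell type and on their APP/PS1 to WT ratios, which had been seen, so these values are a description. The study asked how neutrophils in the blood differ in a mouse model of Alzheimer's disease. It sequenced 1 single-cell library per genotype. The WT library came from C57BL/6J mice that carry no transgene, and the APP/PS1 library from transgenic mice of that name, which deposit amyloid in the brain. Each library pooled the blood of 3 female mice at 7 months of age, so the groups have 1 sample each and no spread between mice could be measured. In both genotypes red cells were lysed and neutrophils were enriched with a negative selection kit. No test was therefore run, and every interval below is a 95% interval that covers counting error only.

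A WAP domain is a short fold held together by disulfide bonds between conserved cysteines, and many proteins of this family block serine proteases. SLPI, the secretory leukocyte protease inhibitor, binds neutrophil elastase and cathepsin G, which activated neutrophils release, and it is also known to dampen NF-kB signalling in macrophages. Wfdc17 is known from activated macrophages and microglia, where its product has been linked to a milder inflammatory response. Wfdc21 is a small relative that is expressed in myeloid cells, and its inhibitory targets are less well described.

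The coding sequences are printed to show what the family shares, with the cysteine codons (TGT or TGC) in capitals. All 3 were cut from GENCODE M21 transcripts on mm10 at the annotated coding parts and are given 5′ to 3′. Wfdc17 and Wfdc21 run from start to stop codon, and Slpi from codon 34, which keeps 16 of its 17 cysteine codons. Slpi lies on the minus strand of chromosome 2, where its gene spans 164354070 to 164389095. Wfdc17 (chromosome 11, 83703991 to 83706268) and Wfdc21 (chromosome 11, 83746940 to 83752642) are on the plus strand of one locus.
Slpi, codon 34 to stop: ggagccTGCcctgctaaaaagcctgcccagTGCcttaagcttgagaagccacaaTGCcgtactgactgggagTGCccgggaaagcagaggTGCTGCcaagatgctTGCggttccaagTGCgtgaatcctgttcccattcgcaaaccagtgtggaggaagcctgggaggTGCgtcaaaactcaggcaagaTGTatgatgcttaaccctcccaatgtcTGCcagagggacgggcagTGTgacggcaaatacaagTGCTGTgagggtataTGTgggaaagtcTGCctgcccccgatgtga
Wfdc17: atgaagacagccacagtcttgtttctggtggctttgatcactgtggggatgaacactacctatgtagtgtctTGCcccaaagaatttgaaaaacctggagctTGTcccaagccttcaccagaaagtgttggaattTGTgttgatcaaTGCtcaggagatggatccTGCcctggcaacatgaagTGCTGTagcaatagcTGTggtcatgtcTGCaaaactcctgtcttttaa
Wfdc21: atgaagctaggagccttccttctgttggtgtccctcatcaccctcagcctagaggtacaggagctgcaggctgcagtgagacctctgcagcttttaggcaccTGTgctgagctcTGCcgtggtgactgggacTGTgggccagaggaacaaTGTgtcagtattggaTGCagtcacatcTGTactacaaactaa
Slpi is the longest, with 131 codons before the stop and 17 cysteine codons in 4 exons of the transcript used. Wfdc17 has 76 codons with 9 for cysteine, and Wfdc21 has 63 codons with 6 for cysteine, each in 3 exons. In global alignment Wfdc17 and Wfdc21 were identical at 49.8% of aligned columns, while Wfdc17 and its other neighbour Wfdc18 were identical at 79.7%. The longest run of bases that the Wfdc17 and Wfdc18 transcripts share is 30, and between the 3 members no shared run is longer than 10 bases.

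Slpi and Wfdc17 are also shown with the 250 bases before their start sites, since their levels moved most between the libraries. These are RefSeq sequences of build GRCm38.p6, given 5′ to 3′ on the strand of the gene, with motif matches in capitals. The RefSeq starts differ from the ends of the gene spans given above. The Slpi window lies inside its span, and the last part of the Wfdc17 window, with its motif match, lies inside its own. Wfdc21 had no entry in that table.
Slpi promoter, chr2:164356508-164356757, minus strand: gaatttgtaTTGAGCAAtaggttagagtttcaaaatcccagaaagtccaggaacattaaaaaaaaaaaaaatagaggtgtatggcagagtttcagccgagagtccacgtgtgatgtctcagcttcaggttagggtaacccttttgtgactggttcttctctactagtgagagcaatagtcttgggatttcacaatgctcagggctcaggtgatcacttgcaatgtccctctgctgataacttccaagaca
Wfdc17 promoter, chr11:83703806-83704055, plus strand: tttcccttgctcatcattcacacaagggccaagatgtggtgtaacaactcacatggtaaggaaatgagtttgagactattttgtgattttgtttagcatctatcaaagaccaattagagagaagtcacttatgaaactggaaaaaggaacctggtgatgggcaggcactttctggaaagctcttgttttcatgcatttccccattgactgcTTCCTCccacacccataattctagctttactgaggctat
The windows were searched on both strands for the letters of 2 factors that act in myeloid cells. A C/EBP motif (TTGCNNAA or TTNNGCAA) was found once, in Slpi, and occurs in 9.56% of all 32851 promoters of this length. A PU.1 motif (GAGGAA or TTCCTC) was found once, in Wfdc17, and occurs in 23.3% of promoters. A motif that is absent from one window says only that these letters are not there.

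The WT library held 17123 cells and 92458623 unique molecular identifiers (UMIs), and the APP/PS1 library 17645 cells and 84870864 UMIs. After the filters of the study, with percentiles taken per library, 14564 and 15208 cells were kept. Clusters carrying neutrophil markers held 7583 and 9588 of them, with a median of 2553 and 2703 UMIs per cell. The neutrophil markers Csf3r (2380 and 2384 CPM) and Cxcr2 (1412 and 1453 CPM) were present in both. All other listed neutrophil markers were lower in APP/PS1. S100a8 was at 65304 and 52956 CPM, S100a9 at 94837 and 81911, Retnlg at 13312 and 11592, Hdc at 2037 and 1608 and Mmp9 at 1708 and 1500. The other clusters had the markers of classical monocytes, nonclassical monocytes, erythroid cells, basophils, NK cells, T cells and B cells, so neutrophil enrichment had left other leukocytes in the samples. CPM are UMIs of a gene per 1000000 UMIs of the cells of that type, and where values stand in pairs the WT value comes first. The kit counts 1 UMI per captured 3′ end, so levels of different genes are compared per molecule, without a length term. The 2 libraries shared 63 barcode sequences among kept cells.

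Slpi was the most abundant member in neutrophils, where its level was also the highest of the cell types. Its level was 3480 CPM (3455 to 3504) in WT neutrophils and 2586 CPM (2567 to 2604) in APP/PS1 neutrophils, which ranked 27th and 43rd of all genes there. It was 428 and 298 CPM in classical monocyte-like cells, 385 and 330 CPM in nonclassical monocyte-like cells and 710 and 792 CPM in erythroid-like cells. In NK-like, T-like and B-like cells it lay between 114 and 309 CPM in both libraries. Neutrophils held 80.9% of all Slpi UMIs of kept cells in WT and 88.3% in APP/PS1. Over all kept cells Slpi and Wfdc17 had nearly equal totals in WT, 93686 and 93869 UMIs, and 86290 and 68340 UMIs in APP/PS1.

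Wfdc17 was spread more widely over myeloid cells than the other members. Neutrophils had 2852 CPM (2829 to 2874) in WT and 1769 CPM (1754 to 1784) in APP/PS1. Classical monocyte-like cells came next with 1140 CPM (1125 to 1154) and 892 CPM (876 to 908). Erythroid-like cells had 655 and 466 CPM, nonclassical monocyte-like cells 344 and 239 CPM, and NK-like, T-like and B-like cells 118 to 306 CPM. Neutrophils accordingly held a smaller share of the Wfdc17 UMIs, 66.1% in WT and 76.3% in APP/PS1.

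Wfdc21 had the lowest level of the members and was the most restricted to neutrophils. It had 1071 CPM (1057 to 1085) in WT neutrophils and 968 CPM (956 to 979) in APP/PS1 neutrophils. Classical monocyte-like cells had 68.6 and 50.7 CPM, below the 96.4 and 94.95 CPM of nonclassical monocyte-like cells. That order turned once cells called doublets were removed, as given below. Erythroid-like cells had 181 and 226 CPM. The NK-like, T-like and B-like cells ranged from 44.8 to 105 CPM. Neutrophils held 86.1% and 91.9% of its UMIs.

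**Figure D1:**
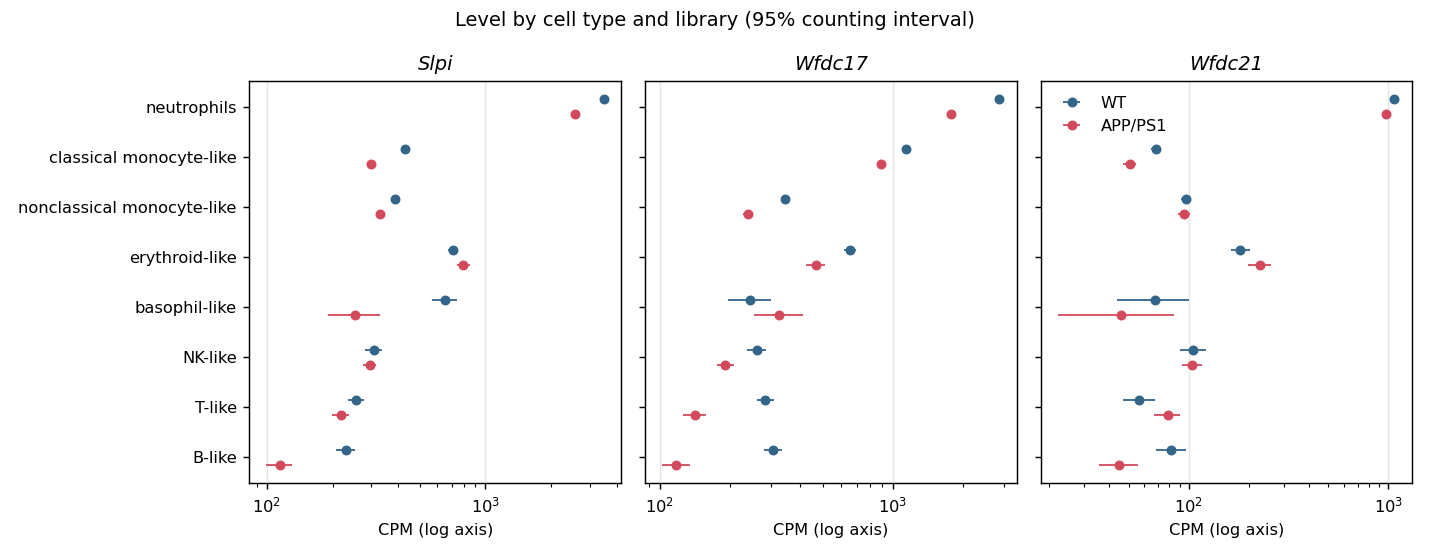
Level of each member in CPM (log axis) by cell type, with WT in blue and APP/PS1 in red; points are the single library of each genotype and bars are 95% counting intervals. All 3 members are highest in neutrophils, and in classical monocyte-like cells Wfdc17 stands at 1140 and 892 CPM, above the other members.

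Basophil-like cells numbered 72 in WT and 43 in APP/PS1, under the minimum of 50 per library set for ratios, and their levels are given side by side only. Slpi was at 652 and 253 CPM, Wfdc17 at 243 and 326 CPM, and Wfdc21 at 67.6 and 46.0 CPM.

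Levels outside neutrophils were read against S100a8, an alarmin of neutrophils that reached 65304 and 52956 CPM there, because RNA from neutrophils can enter other droplets. Per 1000 S100a8 UMIs, WT neutrophils had 53.3 UMIs of Slpi, 43.7 of Wfdc17 and 16.4 of Wfdc21, and APP/PS1 neutrophils had 48.8, 33.4 and 18.3. The NK-like, T-like, B-like, erythroid-like and nonclassical monocyte-like cells had 44.5 to 58.8 UMIs of Slpi, 28.9 to 64.8 of Wfdc17 and 11.6 to 18.6 of Wfdc21, which spans the neutrophil values for each member. Classical monocyte-like cells stood apart for Wfdc17, with 265 UMIs in WT and 311 in APP/PS1, and for Slpi, with 99.5 and 104. For Wfdc21 they had 16.0 and 17.7, close to the neutrophil values.

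Cells called doublets made up 16.0% of WT and 8.03% of APP/PS1 classical monocyte-like cells, 14.5% and 16.0% of nonclassical monocyte-like cells, 45.2% and 55.3% of erythroid-like cells, and 0.620% and 2.32% of neutrophils. With these cells removed and the rest clustered again, Slpi in nonclassical monocyte-like cells went down to 68.6 and 98.7 CPM, and Wfdc21 in classical monocyte-like cells to 22.0 and 33.9 CPM. Wfdc21 in nonclassical monocyte-like cells went down to 13.7 and 20.9 CPM, now below the classical monocyte-like cells. Wfdc17 in classical monocyte-like cells moved less, to 1058 and 841 CPM, and stood at 771 and 476 UMIs per 1000 S100a8 UMIs. Its level in classical monocyte-like cells was therefore nearly as high without the called doublets, and the Slpi level of nonclassical monocyte-like cells was not. Per 1000 S100a8 UMIs, Slpi then stood at 72.3 and 78.7 in nonclassical and 206 and 138 in classical monocyte-like cells. Both were above the 53.3 and 48.8 of neutrophils. So were NK-like cells at 54.6 and 73.0, erythroid-like cells at 56.7 and 59.6 and basophil-like cells at 113 and 55.0. T-like cells had 53.7 and 45.5, and B-like cells 41.8 and 52.8.

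The neutrophil levels of all 3 members were lower in the APP/PS1 library than in the WT library, by different amounts. The log2 ratio of CPM was −0.69 for Wfdc17 (−0.71 to −0.67), −0.43 for Slpi (−0.44 to −0.41) and −0.15 for Wfdc21 (−0.17 to −0.12). The intervals do not overlap each other or 0, though without replicate mice the difference between animals is unknown. Wfdc17 was past the study's fold limit of 0.5 on the log2 scale and ranked 138th from the lowest of 8305 genes with at least 100 UMIs, of which 298 were lower (3.59%) and 408 higher (4.91%) past the limit. With scaling by the trimmed mean of M-values (TMM) of edgeR the balance turned, with 360 lower and 287 higher. Slpi stayed inside the limit, at percentile 4.65 of these genes, and Wfdc21 was at percentile 17.6. The median gene had a log2 ratio of 0.055, with quartiles at −0.082 and 0.19.

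Several markers differed between the same neutrophils. Of the secondary granule markers, Camp was at 529 and 728 CPM, Ngp at 704 and 946, Ltf at 220 and 329, Chil3 at 62.5 and 92.2, Cd177 at 97.5 and 98.8 and Lcn2 at 1870 and 1597. S100a8 had a log2 ratio of −0.30, and Wfdc21 per S100a8 was slightly higher in APP/PS1 while Slpi and Wfdc17 per S100a8 were lower. The summed level of 6 erythroid markers was 1800 CPM in the WT library and 1098 CPM in the other, that of 6 platelet markers 1100 and 1396 CPM, that of 6 monocyte markers 4068 and 3971 CPM and that of 5 classical monocyte markers 265 and 237 CPM. The list of 6 T cell markers stood at 11.9 and 55.0 CPM, of which Cd3d accounted for 7.03 and 48.1 CPM. None of the erythroid, platelet, monocyte, classical monocyte and T cell markers was at 0 in neutrophils. Without the cluster led by platelet genes the log2 ratios were −0.45 for Slpi, −0.72 for Wfdc17 and −0.14 for Wfdc21. Without the cluster led by secondary granule genes they were −0.42, −0.67 and −0.25. The part of the other lists in the ratios was not tested.

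Single neutrophils were compared after each was thinned to 1000 UMIs, which left out 2 APP/PS1 cells and none in WT. A Slpi UMI was then found in 88.4% of WT (87.6% to 89.1%) and 79.3% of APP/PS1 neutrophils (78.5% to 80.1%), and the shares differed by −9.05 percentage points. Wfdc17 was found in 65.4% (64.3% to 66.5%) and 51.5% (50.5% to 52.5%), differing by −13.9 points. Wfdc21 was found in 48.9% (47.8% to 50.1%) and 43.8% (42.8% to 44.8%), differing by −5.16 points. Without thinning the shares were 97.1% and 93.1% for Slpi, 80.2% and 68.6% for Wfdc17, and 70.7% and 68.0% for Wfdc21.

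In T-like and B-like cells, which should lack these genes, thinned shares were 8.14% to 11.9% for Slpi, 7.55% to 14.1% for Wfdc17 and 3.26% to 5.16% for Wfdc21. Their median depth was 3574 to 5875 UMIs per cell. All neutrophil shares were far above these. Wfdc17 was found in 60.1% of WT and 50.4% of APP/PS1 classical monocyte-like cells, while Wfdc21 was found in 5% and 4.58% of them, near the lymphocyte background.

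The members differed in how evenly neutrophils held them. Wfdc17 was the most uneven, with a variance over cells of 5.61 times its mean in WT and 5.40 times in APP/PS1 at equal depth, where a Poisson spread over cells gives 1. Its thinned mean was 2.92 UMIs per cell in WT, for which a Poisson spread leaves 5.42% of cells with none, and 34.6% had none. At the other end 7.28% of WT and 3.599% of APP/PS1 neutrophils held 10 or more Wfdc17 UMIs of their 1000. Slpi had a variance of 2.47 and 2.73 times its mean and Wfdc21 of 1.93 and 2.05 times. The spread of Wfdc17 was also present inside single clusters, with variances of 6.23 and 6.26 times the mean in the WT and APP/PS1 cells of a cluster led by Cstdc5, Stfa1 and Retnlg (cluster 0 in what follows). Among cells with a UMI the thinned mean of Wfdc17 was 4.46 in WT and 3.596 in APP/PS1, and that of Slpi 4.01 and 3.31, so both the share of cells and the level in those cells were lower in APP/PS1. For Wfdc21 the mean in cells with a UMI was 1.94 and 1.92.

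**Figure D2:**
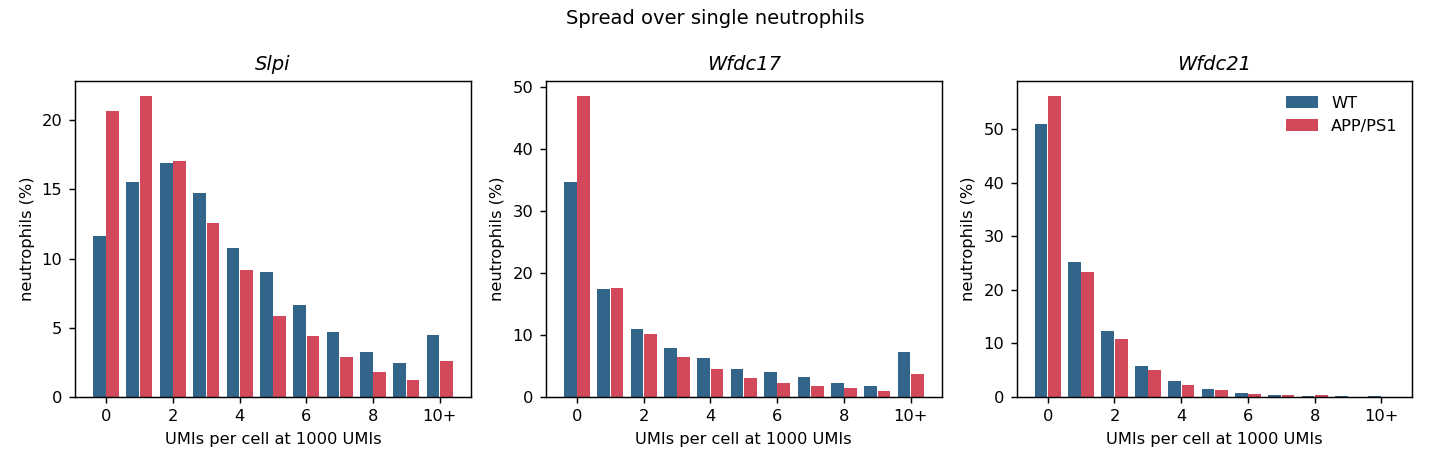
Percent of neutrophils by number of UMIs of each member after thinning every cell to 1000 UMIs (the last bar is 10 or more), WT in blue and APP/PS1 in red. Wfdc17 combines many cells at 0, 34.6% in WT and 48.5% in APP/PS1, with a tail at 10 or more of 7.28% and 3.599%.

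The 3 genes were found in the same neutrophil about as often as their separate shares predict. All 3 were seen in 29.3% of thinned WT neutrophils and 18.7% of APP/PS1 neutrophils, and the product of the single shares was 28.3% and 17.9%. Pearson r over cells between Wfdc17 and Slpi was 0.024 and 0.018, and between the chromosome 11 neighbours Wfdc21 and Wfdc17 it was 0.090 and 0.084. Cells of a library share its depth and its free RNA, and these values are descriptions.

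Wfdc21 followed a different set of genes from the other members. Among 2361 genes with at least 1000 UMIs in each library, the 5 with the highest r to Wfdc21 over neutrophils were S100a8 (0.43 in WT and 0.41 in APP/PS1), S100a9, Retnlg, Lcn2 and Lyz2, the last at 0.27 and 0.30. S100a8 and S100a9 form calprotectin, and Lcn2 is a siderophore-binding granule protein. For Slpi the 5 were Tyrobp, S100a11, Cd52, Srgn and H2-D1, with r of 0.14 at most, and for Wfdc17 Ifitm1, Lrg1, Ifitm2, Srgn and Ccl4, with 0.20 at most. Values that low in sparse counts show no partner for Slpi or Wfdc17.

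Over the 16 combinations of cell type and library, in which neutrophils dominate the range, Wfdc21 was most like S100a8, S100a9, Ly6g, Lrg1 and Chil1 (r of 0.97 to 0.98 on log2(CPM + 1), among 8907 genes). Slpi was most like Clec4d, Ppp1r3d, Lmnb1, Slc7a11 and Il1r2 (0.96 to 0.98). Wfdc17 was most like Oas2, Ptafr, Sgms2, Ninj1 and Lilra6 (0.92).

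Neutrophils were clustered again without the WAP genes and without genes that differed between libraries by more than the fold limit, which gave 7 clusters. Cluster 0 (2616 cells in WT and 2444 in APP/PS1) was led by Cstdc5, Stfa1 and Retnlg, and cluster 1 (1784 and 3087) by Clec4n and Dusp2, with Retnlg low. Cluster 2 (1474 and 2080) carried platelet genes such as Gp5, and cluster 3 (739 and 1140) the interferon-induced Ifit genes. Cluster 4 (769 and 558) was led by Gm28192, Rgs1 and Rictor. Cluster 5 (144 and 207) carried Camp, Ltf and Ngp, genes of secondary granules that are transcribed while neutrophils mature in the marrow, and cluster 6 (57 and 72) mitochondrial genes.

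The members split most sharply in the cluster led by secondary granule genes. There Wfdc21 reached 4001 CPM in WT (3863 to 4142) and 4297 CPM in APP/PS1 (4187 to 4410), while the other neutrophils had 960 and 809 CPM. Wfdc17 was at 844 CPM and 338 CPM in that cluster against 2928 and 1837 CPM in the other neutrophils. Slpi was at 1735 and 1087 CPM against 3546 and 2657 CPM. The log2 ratio of that cluster to the other neutrophils was thus 2.06 in WT and 2.41 in APP/PS1 for Wfdc21, −1.79 and −2.44 for Wfdc17, and −1.03 and −1.29 for Slpi. A Wfdc21 UMI was found in 93.1% and 95.7% of its thinned cells and a Wfdc17 UMI in 32.6% and 15.5%.

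Among the other clusters Wfdc21 again varied most. It was at 1306 and 1180 CPM in cluster 0, 928 and 840 CPM in cluster 2, 884 and 743 CPM in cluster 3, 807 and 695 CPM in cluster 4 and 697 and 691 CPM in cluster 6, and lowest in cluster 1 at 532 and 500 CPM. S100a8 had its lowest level in the same cluster, 39315 and 31116 CPM, and its highest in cluster 5, 133550 and 128361 CPM. Slpi outside cluster 5 stayed between 3383 and 4002 CPM in WT and between 2190 and 2732 CPM in APP/PS1, so its WT and APP/PS1 values did not overlap. Wfdc17 outside cluster 5 ran from 2543 to 3202 CPM in WT and from 1452 to 2112 CPM in APP/PS1, also without overlap.

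**Figure D3:**
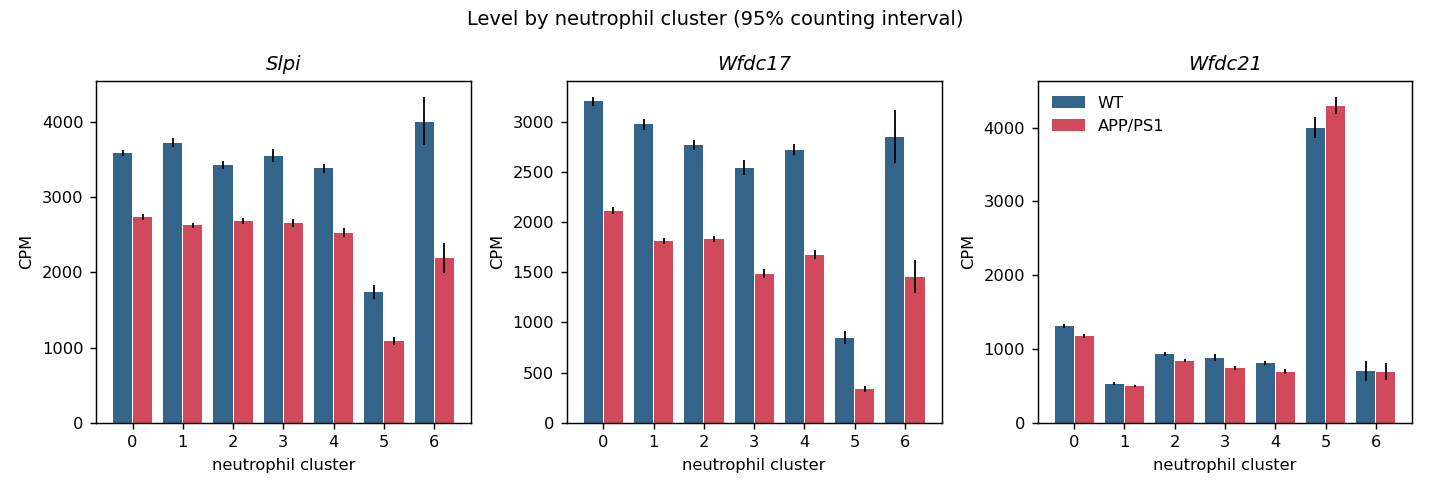
Level of each member in CPM in the 7 neutrophil clusters, WT in blue and APP/PS1 in red; error bars are 95% counting intervals. In cluster 5, led by secondary granule genes, Wfdc21 is at 4001 and 4297 CPM while Slpi and Wfdc17 are at their lowest.

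The lower levels in APP/PS1 were present inside the clusters. Wfdc17 was below 0 on the log2 scale and past the fold limit in 7 of 7 clusters, where 3.8%, 3.16%, 3.43%, 3.84%, 3.32%, 6.08% and 6.69% of genes were, in the order of clusters 0 to 6. Its log2 ratio ran from −0.60 in clusters 0 and 2 to −1.32 (−1.49 to −1.14) in cluster 5. Slpi was lower in 7 of 7 clusters and past the limit in 3, at −0.51 in cluster 1 (−0.54 to −0.47), −0.67 in cluster 5 (−0.78 to −0.57) and −0.87 in cluster 6 (−1.04 to −0.69). In cluster 1 its interval reached across the limit. Wfdc21 was lower in 6 of 7 clusters and past the limit in none, with a low of −0.25 in cluster 3 (−0.34 to −0.16). In cluster 6 its interval held 0, and in cluster 5 it was higher in APP/PS1, at 0.10 (0.040 to 0.17). Clustered without integration, Wfdc17 was lower past the limit in 6 of 6 clusters, Slpi was lower in 6 and past the limit in 2, and Wfdc21 was lower in 4. With only the WAP genes left out, Wfdc17 was lower past the limit in 7 of 7 clusters, Slpi was lower in 7 and past the limit in 3, and Wfdc21 was lower in 5. Wfdc21 was past the limit in none of these clusters.

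**Figure D4:**
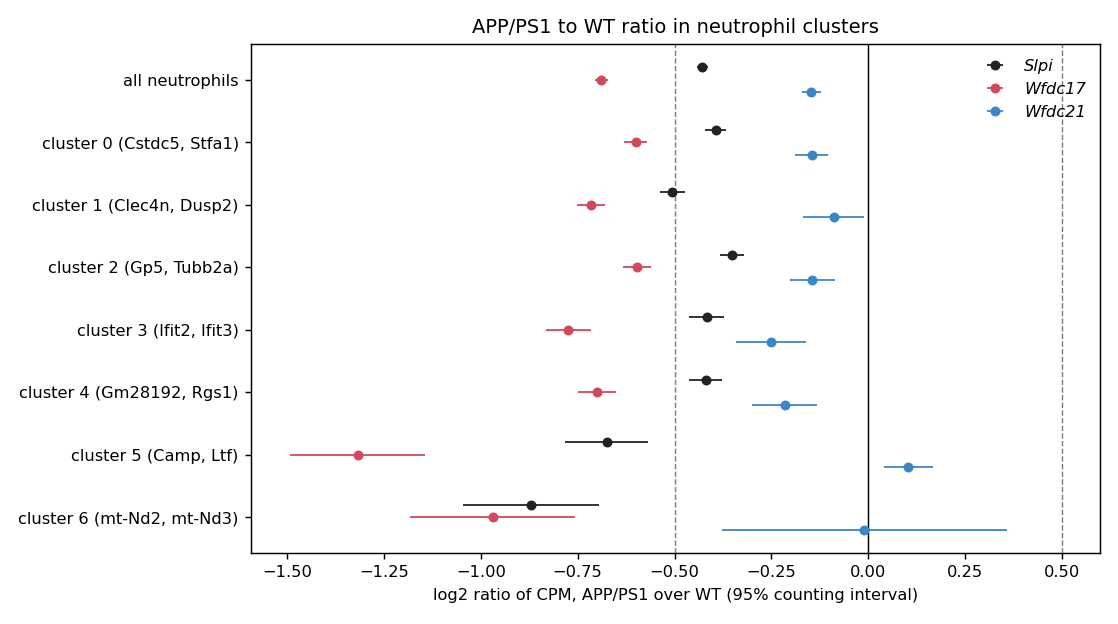
Log2 ratio of CPM, APP/PS1 over WT, for Slpi (black), Wfdc17 (red) and Wfdc21 (blue) in all neutrophils and in each cluster, named by 2 leading genes; bars are 95% counting intervals and dashed lines the fold limit of 0.5. Wfdc17 is past the limit in 7 of 7 clusters, and Wfdc21 is above 0 in cluster 5.

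Cluster shares also differed between the libraries, with cluster 0 at 34.5% of neutrophils in WT against 25.5% in APP/PS1, and cluster 1 at 23.5% and 32.2%. The part of these shares in the ratios over all neutrophils was not tested. Slpi was at 3590 and 2732 CPM in cluster 0 and at 3726 and 2625 CPM in cluster 1. Wfdc17 was at 3202 and 2112 CPM in cluster 0 and at 2974 and 1810 CPM in cluster 1. Wfdc21 was at 1306 and 1180 CPM in cluster 0 and at 532 and 500 CPM in cluster 1. Its log2 ratio within the clusters was −0.15 in cluster 0 and −0.089 in cluster 1.

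Outside neutrophils the ratios rested on fewer UMIs. In classical monocyte-like cells, where Wfdc17 stood above the neutrophil proportion to S100a8, its log2 ratio was −0.35 (−0.39 to −0.32), inside the fold limit. Slpi there was at −0.52 (−0.57 to −0.47) and Wfdc21 at −0.44 (−0.57 to −0.30), where 3% of 9369 genes were lower past the limit. With called doublets removed Slpi was still lower but inside the limit, at −0.22 (−0.28 to −0.15), and Wfdc21 turned to 0.63 (0.42 to 0.83). Slpi there was below 0 in 11 of 11 alternatives and Wfdc21 in 9.

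The remaining types gave mixed values. Wfdc17 was at −0.53 in nonclassical monocyte-like, −0.49 in erythroid-like, −0.45 in NK-like, −1.01 in T-like and −1.38 in B-like cells. Slpi was at −0.22, 0.16, −0.063, −0.23 and −1.004 in the same order, and Wfdc21 at −0.022, 0.32, −0.012, 0.47 and −0.87. Genes lower past the limit made up 2.78% in nonclassical monocyte-like cells, 3.42% in erythroid-like, 2.09% in NK-like, 4.48% in T-like and 6.07% in B-like cells. None of the members was higher past the limit in these types, where 2.17% of genes were in classical monocyte-like, 2.01% in nonclassical monocyte-like, 19.4% in erythroid-like, 3.41% in NK-like, 4.14% in T-like and 3.43% in B-like cells. With called doublets removed 6 values were higher past it, the one of Wfdc21 in classical monocyte-like cells and 5 others. The shares of genes above are from before that removal, and none is given for after it, so this count has no background. Erythroid-like cells then numbered 131 and 58. Slpi was then at 0.53 in nonclassical monocyte-like and 0.53 in erythroid-like cells, and Wfdc21 at 0.61 in nonclassical monocyte-like, 0.79 in erythroid-like and 1.17 in T-like cells. Wfdc17 in erythroid-like cells turned to 0.19 (−0.064 to 0.44), and it stayed below 0 in the other types. In erythroid-like cells scaling by TMM moved all log2 ratios there by −0.19, which put Slpi at −0.029. B-like cells had 3.51 S100a8 UMIs per thinned cell in WT and 1.92 in APP/PS1, so S100a8 was also lower there. Wfdc17 was lower per S100a8 as well in T-like cells, at 58.3 and 28.9 UMIs per 1000 S100a8 UMIs. The same held in B-like cells, at 64.8 and 48.8, and in erythroid-like cells, at 54.3 and 32.8. Nonclassical monocyte-like cells had 49.5 and 40.4, and NK-like cells 37.7 and 30.5. In classical monocyte-like cells, at 265 and 311, and basophil-like cells, at 35.7 and 75.8, it was higher. Without called doublets Wfdc17 stood at 119 and 65.0 in nonclassical monocyte-like cells, above the 43.7 and 33.2 of neutrophils. It was also above them in NK-like cells, at 66.2 and 36.6, and in T-like cells, at 60.8 and 34.6. B-like cells had 60.2 and 53.2, erythroid-like cells 47.6 and 39.5, and basophil-like cells 30.2 and 74.4. A higher value than in neutrophils was thus not particular to monocytes. The part of neutrophil RNA in these values was not tested.

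The rest of the WAP family was nearly silent. The tables list 21 WAP genes, and the 3 members held 99.9% of their UMIs in kept cells. Of the 18 others, 10 had no UMI and 8 had at least 1. Wfdc18, which lies between Wfdc17 and Wfdc21, had 133 UMIs in WT neutrophils and 126 in APP/PS1, or 6.11 and 4.28 CPM, a log2 ratio of −0.51 (−0.88 to −0.15). With both libraries summed its level was highest in classical monocyte-like cells, at 5.78 CPM on 197 UMIs. That was below the 6.11 CPM of WT neutrophils alone. Wfdc2 had 14 UMIs in kept cells, Wfdc3 and Wfdc5 had 3 each, Wfdc1 had 2, and Wfdc10, Wfdc12 and Wfdc13 had 1 each.

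The proteases that SLPI is known to bind had almost no UMIs in these blood neutrophils. Elane, which encodes neutrophil elastase, had 0 UMIs in WT and 2 in APP/PS1 neutrophils, and Ctsg, which encodes cathepsin G, had 2 and 1. The count of 0 allows a level of up to 0.138 CPM, at 3 counts. Their proteins are made in marrow precursors and stored, and RNA counts do not measure them. Prtn3, the gene of proteinase 3, had 4.18 and 3.12 CPM in neutrophils and was highest in classical monocyte-like cells, at 80.3 and 42.05 CPM. Of 13 leukocyte serine proteases, 3 had 100 UMIs in neutrophils, with a median log2 ratio of 0.12. Past the limit 0 of them were lower and 1 higher, beside 3.59% and 4.91% of all genes. The one above the limit was Gzma, an NK cell protease at 13 and 20.1 CPM (0.63, 0.42 to 0.84), Prtn3 was at −0.42 and Prss57 at 0.12.

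Of the other inhibitors of serine proteases only 4 could be measured, too few to read a count past the limit. Of 23 listed genes 22 were matched and 4 had 100 UMIs, with 0 lower and 0 higher past the limit. Among all genes 3.59% were lower and 4.91% higher past it. The median of the 4 was 0.17 beside the 0.055 of all genes. Serpinb1a, which inhibits neutrophil elastase in the cell, was at 22.8 and 25.8 CPM (0.18, 0.011 to 0.34). Serpinb6a was at 0.14, Spint2 at 0.17 and Serpine2 at 0.29, each with an interval that held 0. Slpi had 75755 UMIs in WT neutrophils, against 497 for Serpinb1a.

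Among genes of the NF-kB and inflammatory responses that WAP proteins are known to affect, Cd14 alone was past the limit among those that could be measured. Of 15 listed genes 11 had 100 UMIs, with a median of −0.0038. Past the limit 1 of them was lower and 0 higher, beside 3.59% and 4.91% of all genes. The lower gene was Cd14, the lipopolysaccharide co-receptor, at 1003 and 339 CPM (−1.56, −1.60 to −1.53). Myd88 was the highest at 0.25 (0.19 to 0.32), and Ccl2 the next lowest at −0.24, with an interval that held 0. Nfkbia, an inhibitor of NF-kB that it also induces, was at 581 and 616 CPM (0.083), and Il1b at 14996 and 14957 CPM.

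The genes beside the members did not share one direction. Within 500000 bases of Slpi on chromosome 2, 11 other genes had 100 UMIs in neutrophils. Their log2 ratios ran from −0.27 for Pabpc1l to 0.19 for Ctsa, with a median of −0.049 and 0 past the limit in either direction. Of all genes in neutrophils 3.59% were lower and 4.91% higher past it. Around Wfdc17 and Wfdc21 on chromosome 11, 12 other genes had 100 UMIs, with 2 lower, 1 higher and a median of 0.090. The lower genes were the chemokine gene Ccl9, at 21.9 and 12.7 CPM (−0.78, −0.98 to −0.59), and Wfdc18. The higher gene was Ccl5, at 40.9 and 61.8 CPM (0.60, 0.48 to 0.71), which T and NK cells also express. Ccl6, which had 2855 and 3035 CPM and so about the WT level of Wfdc17, was at 0.088 (0.074 to 0.10). Ccl3 was at 0.36 and Ccl4 at 0.15, so Wfdc17 was lower beside chemokine genes that were higher in the APP/PS1 library.

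**Figure D5:**
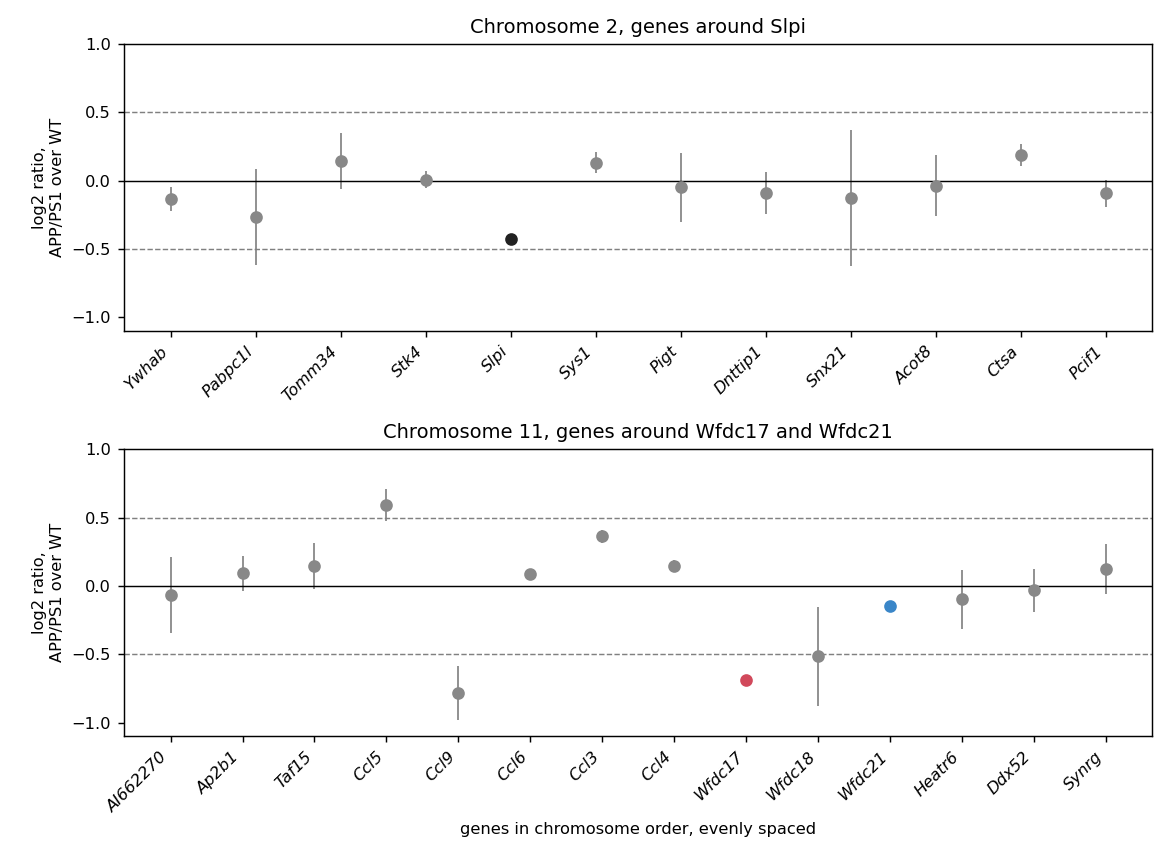
Log2 ratio of CPM in neutrophils, APP/PS1 over WT, for genes in chromosome order around Slpi (top) and around Wfdc17 and Wfdc21 (bottom), with members coloured, neighbours grey, 95% counting intervals as bars and the fold limit of 0.5 dashed. Neighbours of Slpi lie between −0.27 and 0.19, and the chromosome 11 genes run from −0.78 for Ccl9 to 0.60 for Ccl5.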

How the data were processed

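Single-cell RNA of blood leukocytes was measured in 1 WT and 1 APP/PS1 library with the 10x Genomics v3.0 kit. The authors deposited raw UMI counts per gene and cell, per the labels made with Cell Ranger 5.0.0 on mm10, with no normalization. As in the methods of the study, a cell had to lie between percentiles 5 and 95 for both genes and UMIs. It could have at most 10% mitochondrial UMIs, and a gene had to be found in 3 cells. The methods do not say whether the percentiles were taken per library, as was done here. Kept cells were clustered with Seurat 5.3.0 (R 4.3.3; log-normalization to 10000 UMIs, 2000 variable features without WAP genes, 15 principal components, resolution 0.2). Clusters were named by markers. The naming rule was written after the clusters had been seen: a mean log2 ratio over 0.75 for neutrophil markers, otherwise a mean over 2 with at least 3 markers over 1 for the best other type, and a cluster led by Krt13, Mal and Csta1 stayed unnamed. Platelet-like cells (16 in each library) and the unnamed cluster were not compared. Neutrophils were clustered again with canonical correlation anchors at resolution 0.3 on 1783 features, the lowest resolution in steps of 0.05 that gave at least 6 clusters.

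Doublets were called by Scrublet (scanpy 1.11.5, expected rate 8%). The automatic threshold of the APP/PS1 library (0.669) called 0 cells, so the WT threshold (0.214) was used for both, which called 8.23% and 6.24% of kept cells. Called cells were kept except in an alternative.

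UMIs were summed per type and library and given as CPM. With 1 library per genotype no test was made and no p-value exists. CPM have exact Poisson intervals, ratios exact conditional intervals and shares exact Clopper-Pearson intervals, all at the 95% level (scipy 1.17.1). A gene needed 100 UMIs over both libraries in a type, and a type 50 cells in each library, for a ratio. The fold limit of 0.5 on the log2 scale is that of the study. On neutrophil counts simulated as Poisson draws, 95.7% of the intervals of 8241 genes held the true ratio. Of 50 genes lowered by 1 on the log2 scale 98.0% were past the limit. The intervals assume the same model, so this checks the calculation only. No spread between cells or mice was simulated. Sequences came from GENCODE M21 and RefSeq, and were aligned with Biopython 1.88. Genes named are the members, the other WAP genes, listed genes past the limit or at the ends of a list, neighbours, and the 5 genes most like each member. The members and lists were chosen with earlier results of these data known. Alternatives were other cell filters, doublet removal, other clusterings, thinning, the mean over cells, and scaling by edgeR 4.0.16 (TMM), by DESeq2 1.42.0 size factors or without abundant gene classes.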

Additional observations from a re-analysis of the deposited data

Results flagged for a closer look

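Wfdc21, which was lower in APP/PS1 than in WT over all neutrophils, stood at a log2 ratio of 0.10 in the cluster led by Camp, Ltf and Ngp, opposite to the clusters whose intervals lay below 0. The difference between clusters was not tested, since there is 1 library per genotype.

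Outside neutrophils 3 values had counting intervals on the other side of 0 from the neutrophil value of the same gene. Slpi was at 0.16 and Wfdc21 at 0.32 in erythroid-like cells, and Wfdc21 was at 0.47 in T-like cells. These differences were not tested either. With TMM scaling Slpi in erythroid-like cells was at −0.029, and with called doublets removed Wfdc21 in T-like cells was at 1.17, on 27 UMIs in WT and 81 in APP/PS1.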

How the results depend on the processing

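In neutrophils the log2 ratios of all 3 members stayed below 0 under 13 alternatives, from −0.48 to −0.42 for Slpi, −0.74 to −0.65 for Wfdc17 and −0.25 to −0.13 for Wfdc21, and none crossed the fold limit of 0.5. With scaling by TMM they were −0.48, −0.74 and −0.20, with DESeq2 size factors −0.48, −0.74 and −0.20, and without abundant gene classes −0.47, −0.73 and −0.19, in that order. The mean over cells gave −0.66 for Wfdc17 and −0.19 for Wfdc21, thinned cells −0.65 and −0.18, and no percentile limits −0.71 for Wfdc17. Without the cluster with platelet genes Slpi was at −0.45 and Wfdc17 at −0.72, and without the cluster led by secondary granule genes Wfdc21 was at −0.25. The cause of these shifts was not tested.

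The log2 level of neutrophils over classical monocyte-like cells for Slpi was 2.99 with percentiles over both libraries, 3.71 with no percentile limits, 3.51 with called doublets removed and 3.04 with 30 principal components. For Wfdc17 it was 1.30 with no percentile limits, 1.25 with doublets removed and 1.13 with 30 principal components, and for Wfdc21 4.02 with percentiles over both libraries, 5.94 with no limits and 5.22 with doublets removed. The share of neutrophils with a UMI differed by −9.05, −13.9 and −5.16 percentage points for Slpi, Wfdc17 and Wfdc21 in thinned cells, where depth is equal, against −3.94, −11.5 and −2.72 unthinned. Genes past the limit in neutrophils numbered 718 lower and 997 higher with at least 20 UMIs, and 129 and 131 with at least 500 UMIs, by construction of the minimum. With at least 20 UMIs, 3 serine proteases were higher, and 1 other inhibitor was lower and 1 higher. The proteases beside Gzma were Cma1 (0.89, −0.56 to 2.54) and Gzmm (0.71, −0.24 to 1.73), which were highest in NK-like and T-like cells. The inhibitors were Serpinb8 (−0.53, −1.65 to 0.58) and Serpini1 (0.56, −0.41 to 1.60). Each of these intervals held 0. No total of genes is given at that minimum, so these counts have no share beside them.

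In other cell types, 18 values were each recomputed under 11 alternatives. Of the 198 recomputed values 61 moved by more than their counting interval and 28 had the other sign, 6 of them with called doublets removed and 6 with percentiles over both libraries. The number of these values higher past the limit was 0 as reported, 6 with doublets removed, 1 with percentiles over both libraries and 1 in thinned cells. No share of all genes past the limit is given for these alternatives. Wfdc21 in B-like cells turned to 0.21 with no percentile limits. The cause was not tested. No paired analysis was possible because each genotype has 1 library. Leaving out a replicate was not possible for the same reason, and differences between mice are outside every interval here.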
